A study of Mus musculus with 14 samples.

Results

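Of the 2018 peaks of the transcription factor GFI1B in hematopoietic progenitors (HP), 1165 had their centre more than 2 kb from the transcription start site (TSS) of every RefSeq coding transcript of the mouse mm10 genome, and these distal GFI1B peaks are described here. The other 853 are called promoter peaks. The HP were CD41+ cells made in culture from a strain 129 mouse embryonic stem cell line with a GFP reporter at Brachyury, and no other allele or treatment was named. In the same system peaks were mapped in mesoderm (MES, Bry+/Flk1-), hemangioblast (HB, Bry+/Flk1+), hemogenic endothelium (HE, Tie2+/cKit+/CD41-) and macrophages (MAC, CD11b+ cells grown from the CD41+ cells). The 14 lists analysed cover 7 factors and hold 158488 peaks. GFI1B, GATA1, GATA2, RUNX1, PU.1 (encoded by Spi1) and C/EBPβ were mapped in HP, and PU.1, C/EBPβ and RUNX1 in MAC. Per the study's methods TAL1, LMO2, FLI1 and GFI1 were mapped in HP too, and their lists were not analysed here, so a peak with no other HP factor had none of GATA1, GATA2, RUNX1, PU.1 and C/EBPβ. Each list is 1 set of chromatin immunoprecipitation (ChIP-seq) peaks with no replicate and no peak height. The tests below therefore compare sets of peaks of single libraries, not conditions. List length ranged from 72 peaks (MAC RUNX1) to 82866 (MAC PU.1), so a share of overlaps depends on the length of the other list.

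GFI1B is a zinc finger repressor of the blood lineages. It binds DNA through its C-terminal zinc fingers and its N-terminal SNAG domain recruits the histone demethylase LSD1 (encoded by Kdm1a) with the CoREST proteins. Together with its relative GFI1 it is needed for endothelial genes to be shut down when blood cells emerge from hemogenic endothelium, and it is later required in erythroid and megakaryocytic cells.

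Stretches of 300 bases from the middle of 7 distal peaks are shown to make the kinds of sequence visible that the results turn on. They were picked after their values were seen, and the distances are from the peak centre to the TSS. All are plus strand, mm10, from RefSeq. The capitals mark matches, on either strand, to the GFI1B motif (AATCACNGC or AATCAGNGC), the GATA motif (AGATAAG or AGATAAC), the RUNX motif (TGTGGTT), the PU.1 motif (GAGGAAGT), the ETS motif (ACNGGAAG) or the E-box-GATA composite (CTG, 8 bases of any kind, GATAA), which is the site of the TAL1 and GATA complex and can overlap a GATA motif. The first sequence, chr2:28599313-28599612, lies 22.5 kb downstream of the start of Gfi1b itself. The second, chr8:122313411-122313710, lies in an intron of Zfpm1, which encodes the GATA1 partner FOG1. The third, chr16:92821778-92822077, lies in an intron of Runx1. The fourth, chr10:21054726-21055025, lies in an intron of Ahi1, 106 kb from the start of Myb. The fifth, chr8:120371720-120372019, lies 117 kb upstream of Gse1, which encodes a subunit of LSD1 complexes. The last pair carried the GFI1B motif and overlapped no peak of the other lists analysed, and lies 31.1 kb upstream of the kinase gene Pim1 (chr17:29459511-29459810) and in an intron of the ETS factor gene Ets1 (chr9:32673970-32674269).
Gfi1b: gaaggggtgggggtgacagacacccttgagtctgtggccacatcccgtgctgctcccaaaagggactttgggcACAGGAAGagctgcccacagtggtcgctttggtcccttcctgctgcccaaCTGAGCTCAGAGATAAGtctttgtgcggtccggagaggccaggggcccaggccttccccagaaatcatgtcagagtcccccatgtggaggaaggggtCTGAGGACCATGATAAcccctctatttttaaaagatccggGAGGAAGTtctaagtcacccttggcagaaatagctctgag
Zfpm1: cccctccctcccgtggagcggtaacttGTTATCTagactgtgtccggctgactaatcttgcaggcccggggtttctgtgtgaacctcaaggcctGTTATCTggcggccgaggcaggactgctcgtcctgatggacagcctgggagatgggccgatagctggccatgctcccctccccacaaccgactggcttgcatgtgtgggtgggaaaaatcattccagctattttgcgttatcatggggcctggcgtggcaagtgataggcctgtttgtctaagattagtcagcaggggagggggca
Runx1: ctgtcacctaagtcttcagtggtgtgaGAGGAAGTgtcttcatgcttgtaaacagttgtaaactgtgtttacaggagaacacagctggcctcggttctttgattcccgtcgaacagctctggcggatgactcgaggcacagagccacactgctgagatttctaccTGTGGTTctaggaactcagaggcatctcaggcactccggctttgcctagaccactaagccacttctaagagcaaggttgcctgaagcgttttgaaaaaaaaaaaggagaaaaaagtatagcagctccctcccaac
Ahi1: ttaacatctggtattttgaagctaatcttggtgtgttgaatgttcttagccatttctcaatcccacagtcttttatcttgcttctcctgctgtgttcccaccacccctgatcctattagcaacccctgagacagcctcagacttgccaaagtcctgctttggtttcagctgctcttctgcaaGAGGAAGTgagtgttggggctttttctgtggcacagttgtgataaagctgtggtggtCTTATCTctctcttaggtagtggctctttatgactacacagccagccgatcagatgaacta
Gse1: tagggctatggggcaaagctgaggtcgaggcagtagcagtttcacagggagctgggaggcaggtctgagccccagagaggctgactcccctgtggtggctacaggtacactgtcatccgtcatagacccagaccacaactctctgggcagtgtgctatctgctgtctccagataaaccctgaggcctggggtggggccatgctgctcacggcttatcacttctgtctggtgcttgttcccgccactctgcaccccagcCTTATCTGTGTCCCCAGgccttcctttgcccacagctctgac
Pim1: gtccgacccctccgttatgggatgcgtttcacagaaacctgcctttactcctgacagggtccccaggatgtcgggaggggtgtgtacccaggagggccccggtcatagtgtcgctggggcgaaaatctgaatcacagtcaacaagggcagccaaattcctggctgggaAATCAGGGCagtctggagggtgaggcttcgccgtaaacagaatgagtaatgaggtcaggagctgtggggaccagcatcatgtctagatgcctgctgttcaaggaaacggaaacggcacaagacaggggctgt
Ets1: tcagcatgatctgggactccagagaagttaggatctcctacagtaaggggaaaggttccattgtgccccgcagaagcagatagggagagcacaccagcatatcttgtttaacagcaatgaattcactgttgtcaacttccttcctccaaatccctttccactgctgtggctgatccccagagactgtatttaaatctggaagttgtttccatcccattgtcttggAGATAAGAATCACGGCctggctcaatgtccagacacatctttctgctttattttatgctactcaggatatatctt
In the Ets1 sequence the GATA match ends on the base before the GFI1B match begins. The Gfi1b sequence held 2 composites, 1 of which overlaps its GATA match.

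The distal peaks lay within and between genes, nearer to starts than the genome at large. The median distance to the nearest coding TSS was 24.1 kb (quartiles 9.64 and 58.4 kb, largest 1021 kb). Over 102347 windows of 400 bp, placed every 25 kb and kept where they lay more than 2 kb from every coding TSS (grid windows), it was 78.9 kb. Between 2 and 10 kb of a TSS lay 304 peaks (26.1%), 526 (45.2%) lay between 10 and 50 kb, 176 (15.1%) between 50 and 100 kb and 159 (13.6%) beyond. The peak nearest to the 2 kb limit on the distal side was 2033 bp from a TSS, and the nearest on the promoter side 1985 bp. By their centre, 543 peaks (46.6%, exact 95% interval 43.7% to 49.5%) fell in an intron of a coding gene, against 34% of grid windows. For place, the grid shares were counted over 25587 of the grid windows. A further 461 (39.6%) were intergenic, against 56.4%, and 138 (11.8%) lay in a noncoding gene alone, against 7.57%. In exons lay 12 in coding sequence and 11 in untranslated parts. The TSS of a noncoding or predicted transcript was within 2 kb of 172 peaks (14.8%). For 457 peaks (39.2%) the nearest TSS belonged to the gene that contained the peak, and 109 (9.36%) lay inside a different coding gene. Only 75 peaks (6.44%) had another distal GFI1B peak within 10 kb.

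Which other factors were found at these regions was asked first. At distal GFI1B peaks, a peak of GATA1 or GATA2 was more frequent than at promoter GFI1B peaks, whereas macrophage PU.1 and C/EBPβ peaks were less frequent. GATA2, a regulator of early progenitors, overlapped 102 distal peaks (8.76%, interval 7.2% to 10.5%) and 19 promoter peaks (2.23%, 1.35% to 3.46%; odds ratio 4.21, adjusted exact p = 9.6e-10). Here and for the other lists the test was Fisher's exact test, two-sided, adjusted by Benjamini-Hochberg over 13 lists. GATA1, the central factor of erythroid and megakaryocytic cells, overlapped 75 (6.44%) and 17 (1.99%) of them (odds ratio 3.38, adjusted exact p = 4.1e-06). PU.1, the ETS factor of myeloid cells, overlapped 141 distal peaks (12.1%, 10.3% to 14.1%) and 69 promoter peaks (8.09%, 6.35% to 10.1%; adjusted exact p = 0.0102). That call was lost when peaks with centres within 1 kb counted as shared (adjusted exact p = 0.305) or when predicted coding transcripts were added to the TSS (adjusted exact p = 0.06). RUNX1, which drives the endothelial-hematopoietic transition, was at 108 (9.27%) and 67 (7.85%), and C/EBPβ at 67 (5.75%) and 39 (4.57%), and neither difference passed the test (adjusted exact p = 0.352 and 0.347). In grid windows, by comparison, GATA2 and RUNX1 peaks each covered 0.0107%, GATA1 0.00489%, C/EBPβ 0.0703% and PU.1 0.296%. All grid windows lie more than 2 kb from a coding TSS, so no background share near promoters was counted. The lists also differ in their own distal part: 191 of 250 GATA1 peaks, 386 of 530 GATA2 peaks and 382 of 977 RUNX1 peaks. For PU.1 it was 8946 of 10943, and for C/EBPβ 1934 of 2716. The part of this in the differences above was not tested.

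Shared peaks are 400 bp wide and overlap, so their centres lie less than 400 bp apart by construction. Distances under random placement were not computed. The median distance between the centres of a distal GFI1B peak and the other peak was 52 bp for GATA1, 57 bp for RUNX1, 59 bp for GATA2, 76 bp for PU.1 and 85 bp for C/EBPβ. Seen from the other lists, GFI1B was at 75 of 191 distal GATA1 peaks (39.3%, 32.3% to 46.6%), at 109 of 382 RUNX1 peaks (28.5%, 24.1% to 33.3%) and at 102 of 386 GATA2 peaks (26.4%, 22.1% to 31.1%). It was at 66 of 1934 C/EBPβ peaks (3.41%, 2.65% to 4.32%) and at 142 of 8946 PU.1 peaks (1.59%, 1.34% to 1.87%). Promoter peaks of these lists were not counted in this way, so these shares do not rank the partners by preference for distal sites.

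**Figure D1:**
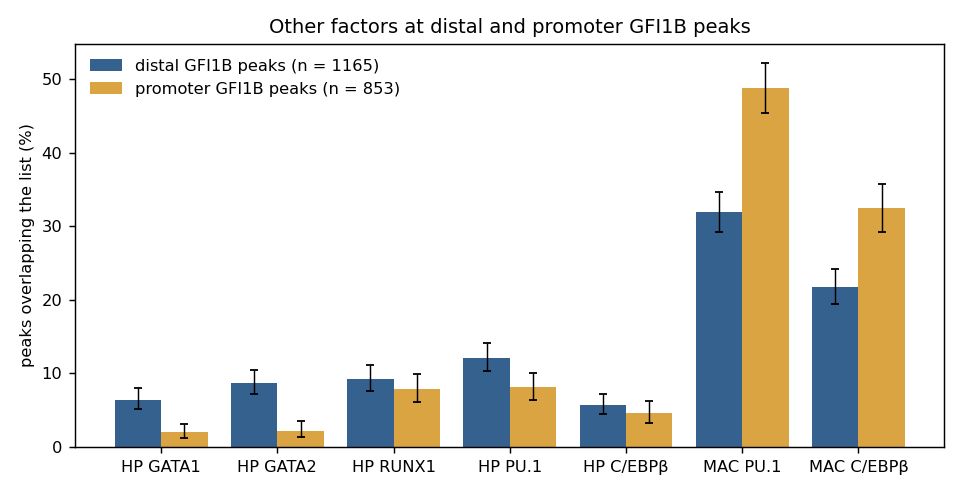
Share of distal (n = 1165) and promoter (n = 853) GFI1B peaks, in percent, that overlap a peak of each HP or MAC list by at least 1 bp; error bars are exact 95% binomial intervals, which cover counting error only. GATA1 and GATA2 are more frequent at distal peaks, MAC PU.1 (31.9% against 48.8%) and MAC C/EBPβ (21.7% against 32.5%) at promoter peaks.

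Most distal GFI1B peaks stood alone among the HP lists. With GATA1 and GATA2 taken as 1 factor, 842 of the 1165 (72.3%) had no other HP factor, against 682 of the 853 promoter peaks (80%), a difference that was not tested. Of the distal peaks, 224 had 1, 78 had 2 and 21 had 3 or 4. PU.1 alone accompanied GFI1B at 85 peaks, GATA1 or GATA2 alone at 65, RUNX1 alone at 38 and C/EBPβ alone at 36. The most frequent pair was GATA with RUNX1, at 26 distal peaks (2.23%) against 5 promoter peaks (0.586%), followed by RUNX1 with PU.1 at 21. All 4 were present at 4 distal peaks, which are the 4 that lie in regions of 8 or more lists. Counting every stage, 605 distal peaks (51.9%) overlapped none of the 13 other lists. The study restricted its integrated analyses to regions seen in 2 or more experiments, and that filter was not applied here. Overlaps with earlier stages were few, with 16 for HB C/EBPβ, 4 for HB GATA2, 8 for HE C/EBPβ, 11 for MES C/EBPβ and 9 for MES ELK4.

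The sequences under the distal peaks were examined next. Distal GFI1B peaks carried GATA, RUNX and ETS motifs more often than their own flanks and than promoter GFI1B peaks, and carried the GFI1B motif less often than promoter peaks. The GATA motif was in 368 distal peaks (31.6%, 28.9% to 34.3%), in 122 of their flanks 2 kb upstream (10.5%; exact McNemar test, two-sided, adjusted exact p = 6.9e-35 over 11 motifs) and in 76 promoter peaks (8.91%, 7.08% to 11%; Fisher's exact test, adjusted exact p = 1.3e-35). The GFI1B motif was in 176 distal peaks (15.1%, 13.1% to 17.3%), 21 flanks (1.8%, adjusted exact p = 3.1e-32) and 180 promoter peaks (21.1%, 18.4% to 24%; adjusted exact p = 9.3e-04). In grid windows the shares were 10.1% for GATA and 1.76% for GFI1B. The RUNX motif was in 241 distal peaks (20.7%) against 9.7% of flanks and 9.03% of promoter peaks, and the ETS motif in 197 (16.9%) against 7.04% and 10.6%. The E-box-GATA composite was in 87 (7.47%) against 0.858% of flanks (adjusted exact p = 2.4e-16) and 2.34% of promoter peaks (adjusted exact p = 3.8e-07). Grid windows held these in 9.1%, 6.14% and 1.2%.

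For factors with no HP list analysed here, the AP-1 motif (TGACTCA or TGAGTCA) was in 138 distal peaks (11.8%), 6.01% of flanks and 4.69% of promoter peaks, and the E-box (CAGCTG or CATCTG) in 579 (49.7%), 41.3% and 35.8%. The motif of the insulator factor CTCF was in 25 (2.15%), 0.343% and 0.469%. The KLF motif (CCACACCC, whose reverse strand can share bases with the RUNX motif) was in 71 (6.09%), 3.78% and 3.52%, a difference from the flank that was lost against the downstream flank (adjusted exact p = 0.129). With distal set beyond 5 kb, the CTCF and KLF differences from promoter peaks no longer passed (adjusted exact p = 0.0731 and 0.0732), nor did KLF in the central 200 bp (adjusted exact p = 0.241). The PU.1 motif was in 74 (6.35%), above the flanks (2.23%, adjusted exact p = 2.0e-06), while the difference from promoter peaks (4.81%) did not pass (adjusted exact p = 0.16). The C/EBP motif (TTGCACAA, TTGCATAA, TTGCGCAA or TTGCGTAA) was in 32 distal peaks (2.75%), 1.89% of flanks and 2.7% of promoter peaks, and neither comparison passed (adjusted exact p = 0.212 and 1). Grid windows held the AP-1 motif in 6.1%, the E-box in 37.7%, CTCF in 0.174%, KLF in 2.28%, PU.1 in 2.36% and C/EBP in 2.81%. Median GC content was 49.5% in distal peaks, 46% in their upstream flanks and 57% in promoter peaks, and its part in these differences was not tested.

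**Figure D2:**
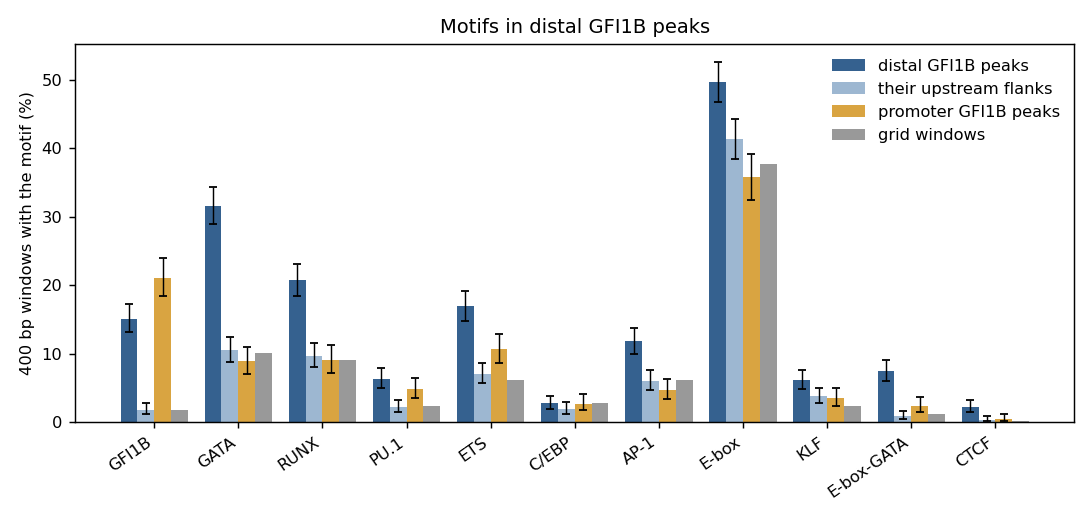
Share of 400 bp windows with at least 1 match to each motif, in percent, for distal GFI1B peaks, their upstream flanks, promoter GFI1B peaks and grid windows; error bars are exact 95% binomial intervals and are left out for the grid. The GATA motif is in 31.6% of distal peaks and 8.91% of promoter peaks, the GFI1B motif in 15.1% and 21.1%.

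The GFI1B motif sat close to the peak centre. Of its 194 matches in distal peaks, 147 (75.8%) lay within 50 bp of the centre, and the median distance was 23.5 bp. For GATA the median was 58.5 bp (177 of 430 matches within 50 bp, 41.2%), for RUNX 57.5 bp (129 of 291, 44.3%) and for PU.1 77 bp (25 of 75, 33.3%). A GATA match was in 41 of the 176 peaks with a GFI1B motif (23.3%, 17.3% to 30.2%) and in 327 of the 989 without (33.1%, 30.1% to 36.1%; odds ratio 0.615, Fisher's exact test, two-sided, p = 0.0106, a comparison chosen after the motif counts were seen). Neither motif was in 662 distal peaks. At least 1 of the GFI1B, GATA, RUNX, PU.1 and ETS motifs was in 772 (66.3%), against 26.5% of grid windows.

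**Figure D3:**
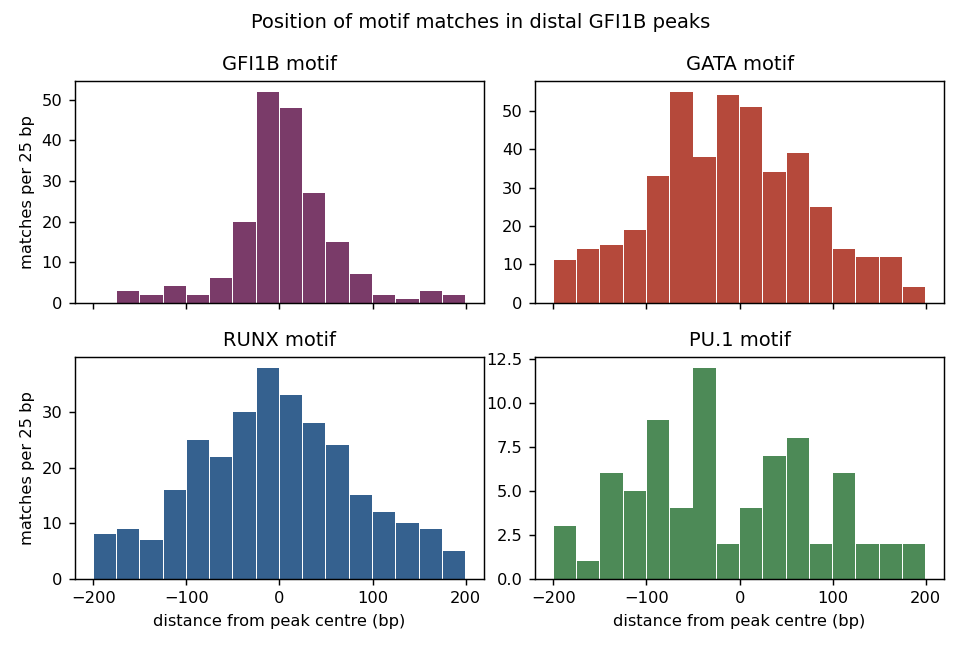
Number of motif matches per 25 bp bin against distance from the centre of the distal GFI1B peak, in bp, for 4 motifs; each panel has its own vertical scale, starting at 0. GFI1B matches gather at the centre (147 of 194 within 50 bp), GATA and RUNX matches are spread more widely and the 75 PU.1 matches are the fewest.

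Motif content differed with the partner. Each factor's own motif was more frequent at the distal GFI1B peaks it shared. The share with the GFI1B motif was lower with every partner, but only the difference with GATA1 or GATA2 passed. As single partners the shares were 6.15% (GATA1 or GATA2), 7.89% (RUNX1), 8.33% (C/EBPβ) and 9.41% (PU.1), and 17.9% with no other HP factor. The partners were not tested against each other. With GATA1 or GATA2 (131 peaks), 51.9% held the GATA motif against 29% without (adjusted exact p = 4.5e-06, Fisher's exact test over 44 combinations of motif and factor). The GFI1B motif was in 7 of those 131 peaks (5.34%, 2.18% to 10.7%) and in 169 of 1034 others (16.3%, 14.1% to 18.7%; adjusted exact p = 0.0036). With centres within 1 kb that call was lost (adjusted exact p = 0.0513). The GFI1B motif was in 5.97% of peaks with C/EBPβ against 15.7% without (adjusted exact p = 0.183), in 8.33% with RUNX1 against 15.8% (adjusted exact p = 0.207) and in 9.22% with PU.1 against 15.9% (adjusted exact p = 0.207), none of which passed. Each of these passed in some setting: C/EBPβ beyond 5 kb (adjusted exact p = 0.046), and RUNX1 and PU.1 with altered letters for the GFI1B motif (adjusted exact p = 0.00173 and 0.0167). The altered letters, given in the last section, match partly other sites than the reported motif. With them the C/EBPβ difference was -2.36 in place of -9.69 percentage points (adjusted exact p = 0.836). With RUNX1, 49 of 108 peaks (45.4%) held the RUNX motif against 18.2% (adjusted exact p = 2.3e-08), and with PU.1, 30 of 141 (21.3%) held the PU.1 motif against 4.3% (adjusted exact p = 3.9e-09). With C/EBPβ, 12 of 67 (17.9%) held the C/EBP motif against 1.82% (adjusted exact p = 6.5e-07). In the central 200 bp alone the C/EBP difference did not pass (adjusted exact p = 0.0569). Besides these, the E-box-GATA composite was in 14.5% of peaks with GATA1 or GATA2 against 6.58% (adjusted exact p = 0.0184) and the RUNX motif in 30.5% of peaks with PU.1 against 19.3% (adjusted exact p = 0.0233). The first of these was lost without chromosome 8 (adjusted exact p = 0.0722) and the second with distal set beyond 5 kb (adjusted exact p = 0.056), among other settings.

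The 842 distal peaks with no other HP factor were then compared with the 323 that had 1 or more, which was decided on once the data had been examined. The GFI1B motif was in 151 of the 842 (17.9%, 15.4% to 20.7%) and in 25 of the 323 (7.74%, 5.07% to 11.2%; odds ratio 2.6, Fisher's exact test, adjusted exact p = 7.0e-05 over 11 motifs). The CTCF motif was in 25 and in 0 (adjusted exact p = 0.0015), and a count of 0 in 323 allows a share of up to 0.929% by the rule of 3 counts and 1.14% by the exact interval. RUNX and PU.1 motifs were less frequent at the unaccompanied peaks, with 18.4% against 26.6% (adjusted exact p = 0.00749) and 4.51% against 11.1% (adjusted exact p = 4.3e-04). Every peak shared with RUNX1 or PU.1 is among the 323, so these 2 differences restate those by partner given above. The GATA motif did not separate the 842 from the 323, at 31% and 33.1% (adjusted exact p = 0.749, a difference of -2.13 percentage points). Thus 261 distal peaks with a GATA motif had none of the other HP factors. The distal peaks of the other HP lists held the GFI1B motif in 1.05% (GATA1) to 2.59% (GATA2).

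**Figure D4:**
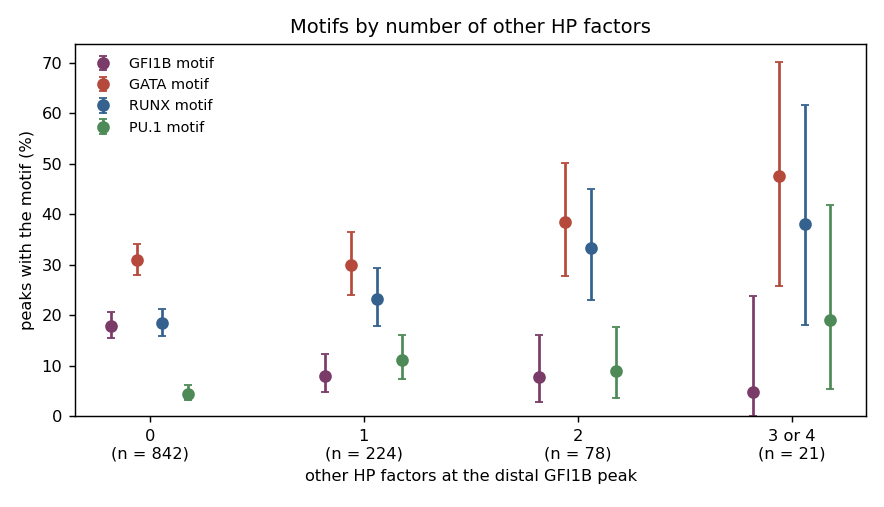
Share of distal GFI1B peaks with a motif, in percent, by the number of other factors (GATA1 or GATA2, RUNX1, PU.1, C/EBPβ) at the peak in HP; points are shares and bars exact 95% binomial intervals. The GFI1B motif falls from 17.9% of peaks with no other factor to 8.04% with 1, and the 21 peaks with 3 or 4 factors have wide intervals.

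The same regions were followed into macrophages, where GFI1B was not mapped in these lists. PU.1 was found in MAC at 372 of the distal GFI1B peaks (31.9%, 29.3% to 34.7%) and C/EBPβ at 253 (21.7%, 19.4% to 24.2%), and 709 had neither. Both were present at 169, PU.1 only at 203 and C/EBPβ only at 84. MAC RUNX1, a list of 72 peaks, was at 9. Grid windows overlapped MAC PU.1 in 2.07% and MAC C/EBPβ in 1.45%. Promoter GFI1B peaks overlapped MAC PU.1 in 48.8% (45.4% to 52.2%; odds ratio 0.493 for distal against promoter, adjusted exact p = 2.8e-13) and MAC C/EBPβ in 32.5% (odds ratio 0.577, adjusted exact p = 3.1e-07). Of all MAC PU.1 peaks 67916 of 82866 were distal, and of all MAC C/EBPβ peaks 46400 of 55471. No background share near promoters was counted, and the part of each list's own placement in both differences was not tested. The size of both differences varied with the overlap rule. For MAC PU.1 it was -16.8 percentage points as reported, -5.49 with an overlap of 200 bp or more (adjusted exact p = 0.0201) and -27.9 with centres within 1 kb, and for MAC C/EBPβ -10.8, -5.22 (adjusted exact p = 0.0111) and -19.4.

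Macrophage occupancy differed with the factor that accompanied GFI1B in HP. Of the 141 distal GFI1B peaks with PU.1 in HP, 134 (95%, 90% to 98%) had PU.1 in MAC, against 238 of 1024 without it (23.2%, 20.7% to 26%; Fisher's exact test, adjusted exact p = 3.0e-64 over 8 combinations). Of the 67 with C/EBPβ in HP, 57 (85.1%, 74.3% to 92.6%) had C/EBPβ in MAC, against 17.9% of the rest (adjusted exact p = 9.9e-30). The other MAC list was higher with these partners too. MAC PU.1 was at 68.7% of the peaks with C/EBPβ in HP against 29.7% (adjusted exact p = 6.3e-10), and MAC C/EBPβ at 39.7% of those with PU.1 in HP against 19.2% (adjusted exact p = 3.1e-07). Without GFI1B, MAC PU.1 was at 96.8% (96.4% to 97.1%) of the 8804 distal HP PU.1 peaks and MAC C/EBPβ at 90.3% (88.9% to 91.6%) of the 1868 distal HP C/EBPβ peaks, and these were not tested against the shares with GFI1B. With RUNX1 in HP, 60.2% had MAC PU.1 against 29% (adjusted exact p = 5.9e-10) and 32.4% had MAC C/EBPβ against 20.6% (adjusted exact p = 0.00773). With GATA1 or GATA2 in HP, 43.5% had MAC PU.1 against 30.5% (adjusted exact p = 0.00501), while MAC C/EBPβ was at 23.7% (16.7% to 31.9%) against 21.5% (19% to 24.1%), which did not pass (adjusted exact p = 0.574). These sets overlap with HP PU.1. Of the 108 peaks with RUNX1, 37 also had HP PU.1 and 36 of those had MAC PU.1, whereas 29 of the other 71 did (40.8%, 29.3% to 53.2%). Of the peaks with GATA1 or GATA2, MAC PU.1 was at all 27 that had HP PU.1 and at 30 of the other 104 (28.8%, 20.4% to 38.6%), and of those with C/EBPβ at 13 of 14 and at 33 of 53 (62.3%, 47.9% to 75.2%). These splits were made after the data had been seen and were not tested. RUNX1 as the single partner (38 peaks) went with MAC PU.1 at 17 (44.7%). Where GATA1 or GATA2 was the single partner (65 peaks), 14 had MAC PU.1 (21.5%) and 50 had neither MAC factor, and of the 842 unaccompanied peaks 167 had MAC PU.1 (19.8%) and 611 had neither.

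**Figure D5:**
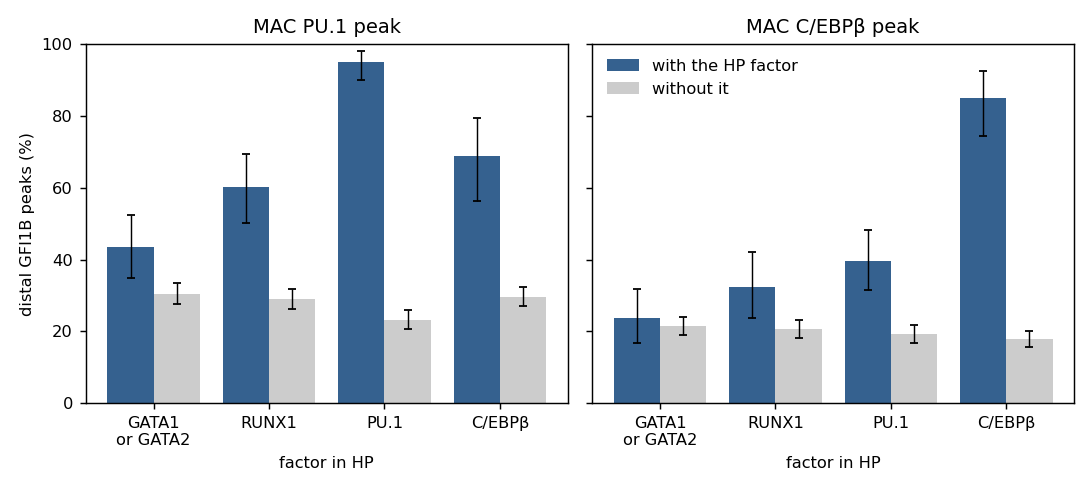
Share of distal GFI1B peaks, in percent, with a PU.1 peak (left) or a C/EBPβ peak (right) in MAC, for peaks with and without each other factor in HP; error bars are exact 95% binomial intervals. PU.1 in HP goes with MAC PU.1 at 95% of peaks and C/EBPβ in HP with MAC C/EBPβ at 85.1%.

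Distal peaks of GFI1B without a given factor were less often occupied in MAC than distal peaks of that factor without GFI1B in 5 of 6 comparisons, leaving out MAC PU.1 against HP PU.1 and MAC C/EBPβ against HP C/EBPβ, where the choice of peaks uses the factor that is read out. MAC PU.1 was at 29% of GFI1B peaks without RUNX1 and at 149 of 273 RUNX1 peaks without GFI1B (54.6%, 48.5% to 60.6%; adjusted exact p = 1.5e-14). Against 371 places with GATA1 or GATA2 and no GFI1B, the shares were 30.5% and 38.8% (33.8% to 44%; adjusted exact p = 0.00421). The exception was MAC C/EBPβ against GATA1 or GATA2, at 21.5% and 24.8% (adjusted exact p = 0.192), which passed only when the TSS of all transcripts set the distal limit (adjusted exact p = 0.0489).

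Among the 1024 distal peaks without PU.1 in HP, the 238 with PU.1 in MAC and the other 786 differed in sequence, which was likewise looked at after the first results. The PU.1 motif was in 8.82% (5.54% to 13.2%) and 2.93% (1.86% to 4.36%; Fisher's exact test, adjusted exact p = 0.00368 over 11 motifs) and the ETS motif in 22.3% and 14.2% (adjusted exact p = 0.0171), letters that cannot share the same site. The GATA motif was less frequent with MAC PU.1, at 24.8% against 34.7% (adjusted exact p = 0.0171). The GFI1B motif was at 13.4% and 16.7% (adjusted exact p = 0.467). In the central 200 bp none of the 3 passed (adjusted exact p = 0.0604 for each), the GATA call was also lost with an overlap of 200 bp or more (adjusted exact p = 0.26) and the ETS call in 4 more settings, from beyond 5 kb (adjusted exact p = 0.0533) to centres within 1 kb, where the ETS difference was 1.9 in place of 8.02 percentage points (adjusted exact p = 0.845).

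Each distal peak was assigned to the coding gene with the nearest TSS, which does not show that the gene is its target. The 1165 peaks fell to 1033 of 21000 coding genes (4.92%). Of these, 920 had 1 distal peak, 97 had 2, 13 had 3 and 3 had 4, so 16 genes (0.0762%) had 3 or more and none had 5. The genes with 4 were Pik3r1, the regulatory subunit of PI3-kinase, Pim1, a survival kinase induced by cytokines, and Gse1. Among those with 3 were Cbfa2t3, which encodes the corepressor ETO2 of the TAL1 complex, Dusp4, a MAP kinase phosphatase, Ptpn1, a tyrosine phosphatase, Prkca, a protein kinase C, Rbpms, an RNA-binding protein, and Insm1, which like GFI1B carries a SNAG domain. The other 7 with 3 were Enc1, Fat1, Foxl1, Gtf3c5, Mdm1, Sgms1 and Umps. These genes were picked after their counts were seen. When only peaks within 50 kb of a TSS were assigned, 3 genes had 3 or more.

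Among regulators of blood, 4 of 26 transcription factor genes had a distal GFI1B peak nearest to them (15.4%, exact interval 4.36% to 34.9%), namely Runx1, Erg, Gfi1 and Zfpm1, and 9 of the 26 had a promoter peak. Of all 21000 coding genes, 821 (3.91%) were nearest to a promoter peak. The Runx1 peak at chr16:92821728-92822127, 4.15 kb inside the gene, was shared with GATA2, RUNX1 and PU.1 in HP and PU.1 in MAC. A second at 2.26 kb had no other HP factor but PU.1 and C/EBPβ in MAC. Erg, an ETS factor of endothelium and stem cells, had intronic peaks at 17.9 and 19.9 kb, neither with another HP factor, the second with GATA2 in HB and PU.1 in MAC. The Zfpm1 intron had peaks 31.4 and 32.9 kb from the start, the first with GATA1 and GATA2 and the second with RUNX1, PU.1 and MAC PU.1. Both overlap fragments that RefSeq annotates as enhancers.

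The gene for GFI1B and that of its relative both had distal GFI1B peaks. At Gfi1b, 3 peaks lay 19.6, 22.5 and 23.8 kb downstream of its start, and the nearest TSS was that of the neighbouring gene Gtf3c5. The farthest from Gfi1b (chr2:28597996-28598395) was shared with GATA1, GATA2 and RUNX1 in HP and with PU.1 and C/EBPβ in MAC, the middle one with GATA2, RUNX1 and MAC PU.1, and the nearest (chr2:28602207-28602606) with GATA1 only. At Gfi1 a peak 33.6 kb upstream, in an intron of Evi5 (chr5:107759215-107759614), overlapped all 5 other HP lists and 11 of the 14 lists in all, MES and HB included. It lies in a fragment that RefSeq annotates as an enhancer. No distal GFI1B peak lay within 150 kb of the start of Spi1, Gata2 or Lmo2. Near Myb, the regulator of definitive progenitors, lay the Ahi1 peak (chr10:21054676-21055075, with GATA1, GATA2, RUNX1 and PU.1 in HP and PU.1 and C/EBPβ in MAC) and 1 peak 67.7 kb upstream of its start, with GATA2.

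Of 13 genes for partners of the GFI1B corepressor complex, 3 had a distal peak (23.1%, 5.04% to 53.8%) and 1 had a promoter peak. Gse1 had 4, between 13.2 and 153 kb upstream, and 3 of them were shared with GATA1. Rcor1, which encodes CoREST, had an intronic peak 54.8 kb from its start that was in no other list. Phf21a, which encodes an LSD1 complex subunit that binds histone H3, had a peak 9.79 kb upstream with GATA1 and RUNX1.

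In the lineages GFI1B serves, 4 of 24 megakaryocyte and platelet genes (16.7%, 4.74% to 37.4%) and 3 of 22 erythroid genes (13.6%, 2.91% to 34.9%) had a distal peak, and none of either list had a promoter peak. Itgb3, the integrin subunit of the platelet fibrinogen receptor, had an intronic peak 11 kb from its start with RUNX1 in HP. The thrombospondin gene Thbs1 had a peak 45.7 kb upstream with GATA2. The receptor genes P2ry1 (217 kb) and F2rl2 (17.4 kb, in an intron of Iqgap2) had peaks with C/EBPβ in HP and with PU.1 and C/EBPβ in MAC. Gypc, a red cell glycophorin gene, had an intronic peak 17.6 kb inside with GATA1 and GATA2, and Bpgm, a red cell metabolic enzyme gene, had one at 10.2 kb in no other list.

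Endothelial genes had 7 distal peaks at 5 of 28 genes (17.9%, 6.06% to 36.9%), and 3 of the 28 had a promoter peak. The VEGF receptor gene Flt1 had intronic peaks at 4.45 and 68 kb, both with GATA2 in HP and PU.1 in MAC. The transcription factor gene Sox7 had peaks 35 kb upstream with GATA2 and 14.3 kb downstream with RUNX1 and PU.1. Egfl7 had a peak 2.41 kb upstream with PU.1, while those of Ets1 (21.9 kb upstream of the nearest TSS) and Col4a2 (54 kb upstream, in Col4a1) were in no other list. Of 22 cardiac and smooth muscle genes, 2 had a distal peak (9.09%, 1.12% to 29.2%), Gata6 at 25.8 kb and Hand1 at 34.6 kb, neither in another list.

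Of 24 myeloid and macrophage genes, 3 had a distal peak (12.5%, 2.66% to 32.4%). Mpo, encoding myeloperoxidase, had a peak 3.52 kb upstream with C/EBPβ in HP and both factors in MAC, inside fragments annotated as enhancers. Cebpe, a granulocyte factor gene, had a peak 6.07 kb downstream of its start with C/EBPβ, GATA1, GATA2 and RUNX1, and Fcgr1 had a peak 34.9 kb upstream with MAC C/EBPβ. Of 18 cell cycle and survival genes, 6 had a distal peak (33.3%, 13.3% to 59%). Bcl2l1, an inhibitor of cell death, had 2 intronic peaks at 12.7 and 19.3 kb, and Mcl1 of the same family had a peak at 3.43 kb with PU.1 in both stages. Myc had a peak 53.1 kb away in the noncoding gene Pvt1, with the GFI1B motif, and Mycn one 52.6 kb upstream. The cytokine signal inhibitors Socs1 and Socs3 had peaks at 47.7 kb with GATA2 and 29.4 kb with PU.1. The Socs1 peak lies in an intron of Clec16a. None of 15 stem cell and cytokine receptor genes had a distal peak, which allows a share of up to 20% by the rule of 3 counts and 21.8% by the exact interval. List counts varied with the assignment. By gene body in place of nearest TSS, Gfi1, F2rl2, Socs1 and Col4a2 had no distal peak and Col4a1 had one. Within 50 kb of a TSS, Rcor1, P2ry1, Col4a2, Myc and Mycn were among the members without one. These lists are short, their intervals are wide and their members were chosen with earlier results known, so nothing is read from their shares beside the 4.92% of all coding genes.

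The distal peaks with the most other HP lists were 4 with all 5 and 8 with 4. The 4 lay in regions with peaks in 10 or more of the 14 lists and were nearest to Rpp21 (all 14), Gfi1, Axin2 and Esp38. Those nearest to Rpp21, Axin2 and Esp38 held none of the 11 motifs, and that of Esp38 lies in the noncoding gene AY036118. Whether regions in so many lists hold nonspecific signal was not tested. The 8 were in introns of Vav1, a blood cell signalling gene, and of Ahi1, Mdga1, Micall2 and Pigl and near Ap1m1, Cebpe and Polr2e, where Pigl and Polr2e fall outside the 10 that the rule names by its order for ties. All 8 had GATA1, GATA2 and RUNX1. The GATA motif was found in 5 of the 8 and was not in those of Vav1, Pigl and Polr2e. In RefSeq, 23 distal peaks (1.97%) overlap an annotated enhancer, against 0.0694% of grid windows and 1 promoter GFI1B peak.

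By chromosome, 98 distal GFI1B peaks (8.41%, 6.88% to 10.2%) were on chromosome 8 and 3 (0.258%, 0.0531% to 0.751%) on chromosome X, where 4.72% and 6.24% of grid windows lie. The share was 1.78 times that of the grid on chromosome 8, 1.79 times on chromosome 11 (91 peaks, 7.81% against 4.36%) and 1.43 times on chromosome 19. The sources used here do not state the karyotype or sex of the stem cell line, and the part of either in these shares was not tested. Chromosome 8 held 8.44% of promoter GFI1B peaks and chromosome X 1.88%. Of the other HP lists, the distal share on chromosome 8 ran from 6.41% (C/EBPβ) to 13.6% (GATA1) and on chromosome X from 0.259% (GATA2) to 1.39% (PU.1). Of the 16 genes with 3 or more distal GFI1B peaks, 10 had as many without chromosome 8.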

How the data were processed

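The deposited lists give position only. Per the study's methods, the authors trimmed reads with CutAdapt, aligned them to mm10 with Bowtie, kept unique reads, removed duplicates with Picard, called peaks with MACS against a stage input at a threshold set by eye for each list, and centred 400 bp on the summit; runs of some lists were merged. The sources used here give no tool versions. RefSeq mm10 NM transcripts gave 25999 TSS. Peaks overlapping by at least 1 bp were called shared. Windows of 400 bp were searched for 11 motifs on both strands. Shares have exact (Clopper-Pearson) 95% intervals for counting error only, and read depth was not used here because the lists hold no reads. Fisher's and McNemar's exact tests (SciPy 1.17.1, Python 3.11.15, NumPy 2.4.6) were adjusted by Benjamini-Hochberg within each set, at 0.05, and the code was tested on simulated data. The members, gene lists, motifs and rules were chosen with earlier results of these data known. Genes with 5 or more peaks, list members with a peak, the 10 peaks in most HP lists and those at Gfi1, Gfi1b, Erg, Runx1, Spi1, Gata2 and Lmo2 were to be named. Alternatives moved the TSS limit and table, the overlap, the motif window, the flank and the gene assignment, or left out regions of 8 or more lists, repeats or chromosome 8. The values of 1 list member with a peak are not reported here.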

Additional observations from a re-analysis of the deposited data

How the results depend on the processing

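Of 102 counts of calls, members or genes recomputed under an alternative, 98 stayed within 1.5 times the reported value. In the central 200 bp, 4 of the 7 calls for motifs by co-bound factor remained in number and 0 of the 3 for motifs by gain of MAC PU.1. Genes with 3 or more distal peaks numbered 3 with peaks within 50 kb of a TSS and 10 without chromosome 8 (16 reported). Among motifs by co-bound factor, other HP factors or MAC PU.1 gain, most tests that had not passed were left out of the single comparisons. Calls gained or directions changed among those were therefore not counted. Of 668 single comparisons recomputed, 627 kept their direction and side of the threshold, 23 lost their call, 9 gained one and 9 changed direction. All 9 were differences that had not passed. In percentage points, distal minus promoter, these were HB C/EBPβ at 0.0763 beyond 5 kb and 0.0155 with predicted coding transcripts, HP C/EBPβ at -1.22 with the TSS of all transcripts and -0.0101 with centres within 1 kb, MAC RUNX1 at -0.176 and -0.137 with the TSS of all and of predicted coding transcripts, and the C/EBP motif at -0.0127 with the TSS of all transcripts and -0.44 in the central 200 bp. The C/EBP motif against the flank was -0.0858 in the central 200 bp. The cause was not tested, beyond the shorter window and the fewer peaks assigned. The alternatives without chromosome 8, with predicted transcripts and with altered GFI1B letters were chosen after seeing the data. With those altered letters (AATC, then A or T, C or G, A or T, then GC) 21.6% of distal peaks and 3.95% of flanks held a match. The altered letters add T before the C or G and leave out C and G after it. They are therefore not a wider form of the reported motif, and the matches shown for Pim1 and Ets1 fall outside them. No paired analysis was possible because each list is 1 sample with no replicate number, so samples could not be paired, whereas each peak was paired with its own flank.

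With 1 list per factor and stage, the spread between experiments is unknown, and peaks are not replicates. List lengths follow thresholds set by eye, so a missing peak shows only that none was called.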
